A study of Nothobranchius furzeri with 3 samples.

Results

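The p53 targets and cell cycle arrest genes CCNG1, cdkn1a, cdkn1b, mdm2, gadd45a, gadd45b, sesn1 and btg2 were followed in the basal layer of killifish epidermis under tunicamycin and with age. A row of the UMI count table was taken as a member when its symbol, ignoring case, equalled 1 of these 8 names or such a name with a final a or b. This found 9 rows of the 22954 genes in the table, for 7 of the 8 names. They are CCNG1 (ENSNFUG00015009320, sgr01), a further row spelled ccng1 (ENSNFUG00015024718, sgr06), CDKN1A (ENSNFUG00015005973, sgr10), CDKN1B (ENSNFUG00015020077, sgr13), MDM2 (ENSNFUG00015024280, sgr01), GADD45AB (ENSNFUG00015008794, sgr12), GADD45AA (ENSNFUG00015011724, on a scaffold outside the numbered chromosomes), GADD45BA (ENSNFUG00015023788, sgr17) and sesn1 (ENSNFUG00015001099, sgr04). Chromosomes are named as in the table, and rows sharing a name were kept apart by identifier. No row matched btg2, which was not analysed here.

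The libraries fall into 3 groups of *N. furzeri* (African turquoise killifish, of the GRZ strain according to the methods of the study). Aged (Tm) fish (3 libraries) were submerged in tunicamycin, a blocker of N-glycosylation that causes stress in the endoplasmic reticulum (ER), at 1 µg/mL for a night by the labels and a full day by the methods. Aged fish (4 libraries) and young fish (4 libraries) were kept in DMSO, the solvent. The labels give no age in numbers and no genotype beyond the species name. The methods of the study speak of biological replicates in general, but neither they nor the labels say that each library came from a separate fish, so the p-values below measure the spread between libraries. RNA was taken by photo-isolation chemistry (PIC), in which UV light on the p63-positive cells of a section uncages the primers, and each counted molecule carries a unique molecular identifier (UMI). The methods of the study name sections of trunk and fin, while a figure legend speaks of the fin.

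The transcription factor p53 is held at a low level by the ubiquitin ligase Mdm2, itself encoded by a p53 target, and is released from it when cells are damaged or stressed. Its targets include inhibitors of the cyclin-dependent kinases that drive the cell from G1 into S phase. Stress of the ER can reach some of the same genes through the factors Atf4 and Ddit3, and the basal keratinocytes studied here are the dividing cells that renew the epidermis.

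Total counts ranged from 319223 to 705538 in aged (Tm), from 37655 to 265509 in aged and from 35366 to 298033 in young libraries. The tissue label was checked against its markers. tp63, the gene of p63, had 1251 to 1673 CPM (counts per 1000000 counts of the library) in aged (Tm), 319 to 1381 CPM in aged and 424 to 1544 CPM in young libraries. krt5 was instead lowest in aged (Tm), at 6119 to 11050 CPM, against 16330 to 32190 CPM in aged and 14530 to 57540 CPM in young libraries. krt15 had 741 to 3906, 106 to 7531 and 1018 to 6316 CPM in that order. All 8 rows of the basal keratinocyte list had counts in each group, with summed levels of 13480 to 14420 CPM in aged (Tm), 25430 to 32980 CPM in aged and 22500 to 59210 CPM in young libraries. By this sum each aged (Tm) library lay below every aged and young library. Lists for suprabasal keratinocytes, immune cells, erythrocytes and pigment cells summed to between 20.2 and 1483 CPM in every library, while those for muscle and fibroblasts reached higher levels and are given with CCNG1. Only 4 of 7 suprabasal and 4 of 9 erythrocyte names were found. krt4, krt8, cldne, hbaa1, hbaa2, hbba1, hbae1 and hbae3 matched no row, so low sums of these lists cannot show that such cells contributed little RNA. The muscle list exceeded the basal keratinocyte list in 2 of the 4 young libraries, replicate 2 (38300 against 31420 CPM) and replicate 3 (70720 against 59210 CPM), and in no aged (Tm) or aged library. Each condition has 1 library name in the labels, so that library preparation and condition cannot be told apart. Likewise, fewer cells with a transcript and less of it per cell cannot be told apart in these bulk samples.

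The 9 members together had 2798 counts over the 11 libraries. Of these, 2656 lay in CCNG1, CDKN1A and sesn1, the 3 members that cleared the low-count filter of edgeR, which asks for 55.5 CPM in at least 3 libraries. The 6 others had 142 counts in all, and are given below by their counts.

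CDKN1A encodes p21, the inhibitor of cyclin-dependent kinases through which p53 halts the cell cycle in mammals. It had 30, 40 and 107 counts in the aged (Tm) libraries, against 1, 4, 0 and 7 in the aged and 2, 3, 0 and 10 in the young libraries. As levels these were 86.5, 125 and 152 CPM in aged (Tm), against 26.6, 15.1, 0 and 38.8 CPM in aged and 18.7, 21.8, 0 and 33.6 CPM in young libraries. Each aged (Tm) library thus lay above each aged and each young library, while the aged and the young libraries overlapped. CDKN1A averaged 121 ± 32.8 CPM in aged (Tm) (SD, n = 3), against 20.1 ± 16.6 CPM in aged and 18.5 ± 13.9 CPM in young libraries (SD, n = 4 each).

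**Figure D1:**
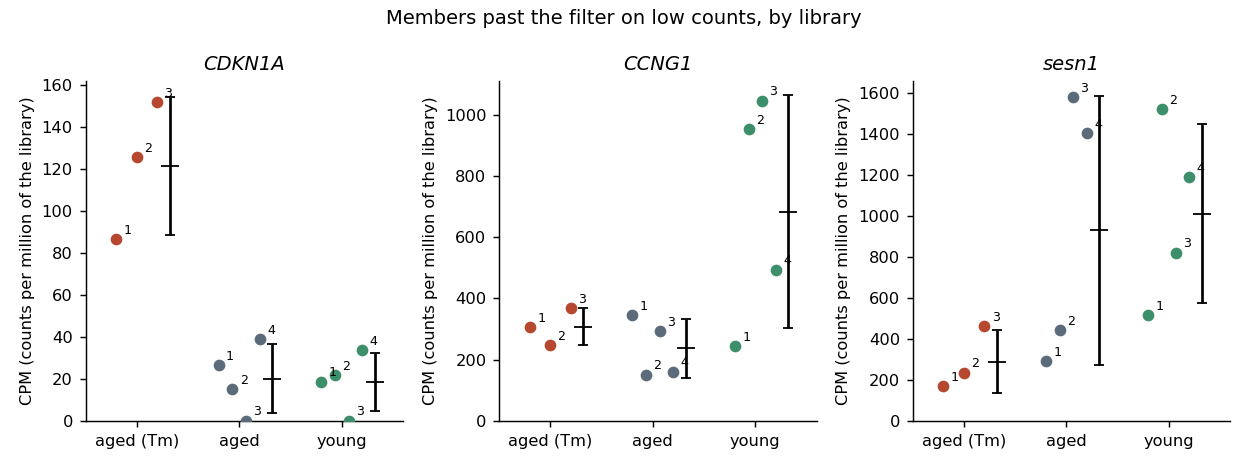
CPM of CDKN1A, CCNG1 and sesn1 in each library (points, with the replicate number) of the aged (Tm), aged and young groups, each panel with its own linear axis from 0; black bars are the mean ± SD of a group. CDKN1A was at 86.5 to 152 CPM in aged (Tm) libraries, against at most 38.8 CPM in the others, while CCNG1 and sesn1 spread widely within the young and the aged groups.

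CDKN1A was higher in aged (Tm) than in aged libraries. It entered the filtered test through the aged (Tm) libraries alone, as set out below. Its log2 fold change in aged (Tm) over aged libraries was 2.69 (SE 0.55, adjusted p = 0.00301, edgeR's quasi-likelihood test with Benjamini-Hochberg adjustment over all 3963 genes tested, threshold 0.1). The same comparison called 38.7% of all genes tested, 18.5% as higher and 20.2% as lower, and CDKN1A was the only call among the 3 members tested. The exact permutation test of its CPM (two-sided) gave p = 0.0286, as low as this test can go with 3 and 4 libraries. The CPM of aged (Tm) and aged libraries did not overlap for 36.1% of the tested genes.

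CDKN1A was also higher in aged (Tm) than in young libraries, again without overlap (log2 fold change 2.61, SE 0.54, adjusted p = 0.00232, exact permutation p = 0.0286). These groups differ in age as well as in tunicamycin, which cannot be told apart in this comparison. It shares the aged (Tm) libraries with the comparison before, called 29.1% of the genes tested (15.9% higher, 13.2% lower) and left 31% of them without overlap in CPM. In aged over young libraries the log2 fold change of CDKN1A was −0.08 (SE 0.66, adjusted p = 0.999; exact permutation p = 0.886), where 0.707% of the tested genes were called and 3.66% had no overlap in CPM. With 12 counts over the aged and 15 over the young libraries, the ratio of the pooled levels was 0.864, with an exact 95% interval of 0.370 to 1.98 that covers counting error only.

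CDKN1A was the tested member with the fewest counts. It passed the filter through the aged (Tm) libraries alone, the only ones over 55.5 CPM, so that a gene at its level could enter the test only by being high there. Both libraries at 0 were shallow, and 3 counts, the limit that a count of 0 allows, correspond to 58.5 CPM in aged replicate 3 and 84.8 CPM in young replicate 3. At the depth of the smallest library the aged (Tm) levels equal 3.06, 4.43 and 5.36 counts. After all libraries were thinned to that depth the gene no longer passed the filter, and in a thinned fit with no filter, picked with the data already seen, its log2 fold change was 2.17 over aged libraries (SE 0.90, adjusted p = 0.359) and 2.95 over young libraries (SE 1.00, adjusted p = 0.234). Without the 3 libraries under 60000 counts, also picked with the data seen, it was 2.42 (SE 0.60, adjusted p = 0.0116) and 2.47 (SE 0.53, adjusted p = 0.00146).

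CCNG1 encodes cyclin G1, a p53 target without a kinase of its own that in mammals acts on the phosphatase PP2A and on Mdm2. It had 106, 79 and 260 counts in aged (Tm), 13, 40, 15 and 29 in aged and 26, 131, 37 and 147 in young libraries. The levels were 306, 247 and 369 CPM in aged (Tm), 345, 151, 292 and 161 CPM in aged and 243, 952, 1046 and 493 CPM in young libraries. On this scale all 3 groups overlapped: 3 of the 4 young libraries were higher than every other library, and young replicate 1 lay among the aged ones. The means were 307 ± 60.5 CPM in aged (Tm) (SD, n = 3), 237 ± 96.7 CPM in aged and 684 ± 380 CPM in young libraries (SD, n = 4 each).

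In aged over young libraries the log2 fold change of CCNG1 was −1.64 (SE 0.55), with an unadjusted p of 0.00696 and an adjusted p of 0.303, and the exact permutation p was 0.0857. edgeR thus called 0 of the 3 tested members with age, beside 0.707% of all genes tested. CCNG1 alone of the 3 had an unadjusted p under 0.05, as had 242 of all 3963 genes. DESeq2, the tool the study names, called CCNG1, at −1.67 (SE 0.48, adjusted p = 0.0373), in a comparison where it called 2.31% of the genes given an adjusted p. In aged (Tm) over aged libraries edgeR gave 0.87 (SE 0.58, adjusted p = 0.244) and DESeq2 1.38 (SE 0.51, adjusted p = 0.0473), where DESeq2 called 25% of such genes. Both comparisons share the aged libraries, the lowest of the 3 groups. After thinning to the smallest library, CCNG1 in aged (Tm) over aged libraries was at −0.88 (adjusted p = 0.423) with the filter and at 0.17 (adjusted p = 0.960) without it. Over young libraries it was −0.77 in aged (Tm) (SE 0.58, adjusted p = 0.321), and after thinning −2.24 with the filter (adjusted p = 0.0554) and −1.55 without it (adjusted p = 0.601).

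The scale mattered for CCNG1. The TMM method divides each library by a factor that aligns most genes, here from 0.616 to 1.05 in aged (Tm), from 0.829 to 1.87 in aged and from 0.752 to 1.23 in young libraries. Over TMM-scaled library sizes, CCNG1 was at 496, 383 and 351 CPM in aged (Tm), at 185, 182, 205 and 158 CPM in aged and at 324, 915, 849 and 446 CPM in young libraries. On this scale the 4 aged libraries lay below all others, with means of 410 CPM in aged (Tm), 182 CPM in aged and 633 CPM in young libraries. The factors were derived from the tested genes but applied here to library totals. Tested genes held 22501 of 37655 counts in aged replicate 1, against 312907 of 346945 in aged (Tm) replicate 1. How closely the aged libraries lay together depends on this choice. The exact permutation test then gave p = 0.0286 for aged (Tm) against aged and for aged against young libraries, the smallest p in both designs. TMM-scaled levels did not overlap for 38.6% of the tested genes in aged (Tm) against aged, for 5.9% in aged against young and for 31.3% in aged (Tm) against young libraries.

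**Figure D2:**
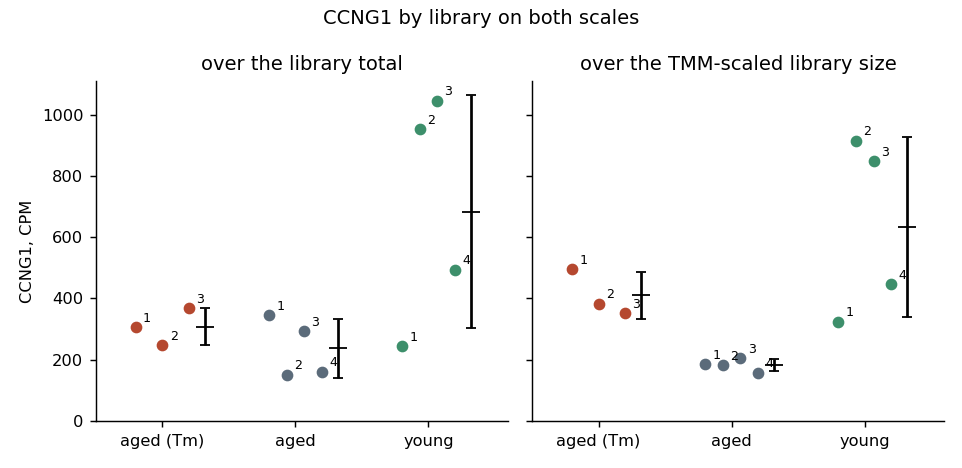
CCNG1 in CPM over the library total (left) and over the TMM-scaled library size (right) for each library (points, with the replicate number) of the aged (Tm), aged and young groups, with the mean ± SD in black. The aged libraries spread from 151 to 345 CPM on the left and from 158 to 205 CPM on the right, where they lie below every other library. The spread on the right depends on applying factors derived from the tested genes to library totals.

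Markers of other tissues differed between the same libraries. All 13 rows of the skeletal muscle list had counts in every group, with summed levels of 3991 to 5753 CPM in aged (Tm), 4972 to 21140 CPM in aged and 18780 to 70720 CPM in young libraries. The young libraries with the most CCNG1, replicates 2 and 3, had 38300 and 70720 CPM of it, against 18780 and 19500 CPM in young replicates 1 and 4. Young replicates 1 and 4, near each other in the muscle list, had 243 and 493 CPM of CCNG1. Among the aged libraries, replicates 1 and 3 were the highest in CCNG1 and had 21140 and 19250 CPM of the muscle list, against 4972 and 6893 CPM in replicates 2 and 4. These aged replicates 2 and 4 had 151 and 161 CPM of CCNG1. The aged (Tm) libraries, with 3991 to 5753 CPM of the muscle list, had 247 to 369 CPM of CCNG1. All 10 rows of the fibroblast list had counts in every group as well, summing to 427 to 1691 CPM in aged (Tm), 935 to 3024 CPM in aged and 7352 to 13750 CPM in young libraries. A fit with the log2 of the muscle sum added as a term, picked with the data already seen, gave CCNG1 a log2 fold change of 1.45 in aged (Tm) over aged libraries (SE 0.43, adjusted p = 0.0418). With age it gave −0.78 (SE 0.50, adjusted p = 0.261). That fit called 647 of all 3963 genes in the former comparison, 1070 with age and 369 in aged (Tm) over young libraries. In the same fit CDKN1A was called in aged (Tm) over aged libraries at 2.27 (SE 0.60, adjusted p = 0.0253), and not over young libraries, at 1.14 (SE 1.28, adjusted p = 0.697), a pair of groups in which the muscle sums do not overlap. Whether muscle, fibroblast or basal keratinocyte content accounts for any of these differences was not tested.

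sesn1 encodes sestrin 1, a p53 target that restrains growth signalling through mTORC1 in mammals. It had 59, 75 and 326 counts in aged (Tm), 11, 117, 81 and 253 in aged and 55, 209, 29 and 354 in young libraries. The levels were 170, 235 and 462 CPM in aged (Tm), 292, 441, 1578 and 1403 CPM in aged and 515, 1519, 820 and 1188 CPM in young libraries. The aged group split into a pair of libraries inside the aged (Tm) range and a pair inside or above the young range. Each aged (Tm) library lay below each young library, a pair of groups without overlap in CPM for 31% of the tested genes. The means were 289 ± 153 CPM in aged (Tm) (SD, n = 3), 928 ± 656 CPM in aged and 1010 ± 437 CPM in young libraries (SD, n = 4 each).

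edgeR called sesn1 in none of the 3 comparisons. Its log2 fold change was −1.38 in aged (Tm) over aged libraries (SE 0.71, adjusted p = 0.139), −1.55 in aged (Tm) over young libraries (SE 0.71, adjusted p = 0.120) and −0.17 in aged over young libraries (SE 0.63, adjusted p = 0.996). The exact permutation tests of the CPM gave p = 0.229, 0.0571 and 0.800 for the same pairs. sesn1 was lower in aged (Tm) than in aged libraries in each of 24 alternatives, from −2.45 to −0.59, and passed the threshold in 6 of them. These were upper quartile scaling (−1.84, adjusted p = 0.0491), scaling by total count alone (−1.94, adjusted p = 0.0459), thinning (−2.45, adjusted p = 0.0439), leaving out the 3 libraries under 60000 counts (−1.48, adjusted p = 0.0935) and leaving out aged replicate 1 (−1.55, adjusted p = 0.0862) or aged replicate 2 (−1.81, adjusted p = 0.0532). Upper quartile scaling called 1645 of all 3963 genes tested (74.5% of them lower), and total count 1395 (73.5% lower). The median gene was at −0.52 and −0.58 in these fits, against −0.03 as reported. Thinning called 140 of 609 genes (70% lower). The remaining fits, in the order above, called 816 of 5302 (34.7% lower), 1204 of 4088 (39%) and 1399 of 3090 (51%). Over young libraries sesn1 passed in 8 of 24 alternatives, from −2.46 to −0.97, where 29.1% of all tested genes were called as reported.

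The 6 members below the filter were close to the limit of detection. The Gadd45 proteins are small stress-induced partners of p21 and PCNA linked to growth arrest and DNA repair. GADD45AB had 3, 6 and 10 counts in aged (Tm), 3, 2, 4 and 3 in aged and 0, 1, 1 and 1 in young libraries. Its pooled level was 13.9 CPM in aged (Tm), 22.4 CPM in aged and 5.19 CPM in young libraries, and the ratio of aged to young was 4.32 (exact 95% interval 1.17 to 23.9, counting error only). Over libraries this did not stand out: 45.5 ± 38.7 CPM in aged and 9.73 ± 12.7 CPM in young libraries (SD, n = 4 each, exact permutation p = 0.171), and a log2 fold change of 1.93 in an edgeR fit with no filter (SE 0.97, adjusted p = 0.885).

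GADD45BA had 3, 7 and 20 counts in aged (Tm), against 0, 4, 0 and 0 in aged and 1, 2, 0 and 3 in young libraries. The ratio of the pooled levels of aged (Tm) to aged was 2.92 (exact 95% interval 1.03 to 11.4), the 4 aged counts all came from replicate 2, and the fit with no filter gave 2.25 (SE 0.84, adjusted p = 0.105; exact permutation p of the CPM 0.0857). Against young libraries its CPM overlapped (exact permutation p = 0.200). Its levels over library totals times the TMM factors did not (exact permutation p = 0.0286), as for 31.3% of the tested genes. That gap was narrow and depends on the scale: 14.05 CPM from 3 counts in aged (Tm) replicate 1, against 13.98 CPM from 2 counts in young replicate 2. GADD45AA had 3, 2 and 1 counts in aged (Tm), 1, 0, 0 and 0 in aged and 0, 0, 1 and 0 in young libraries, too few for an order of the groups.

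MDM2 had 1, 3 and 3 counts in aged (Tm), 2, 2, 1 and 3 in aged and 1, 1, 0 and 7 in young libraries. Its pooled level was 5.10 CPM in aged (Tm), against 15.0 CPM in aged and 15.6 CPM in young libraries. The ratio was 0.341 for aged (Tm) to aged (exact 95% interval 0.105 to 1.08) and 0.328 for aged (Tm) to young (0.104 to 0.989), and the exact permutation tests over libraries gave p = 0.114 and 0.600. The edgeR fit with no filter gave MDM2 −0.63 over aged (SE 0.90, adjusted p = 0.749) and −0.65 over young libraries (SE 0.89, adjusted p = 0.761). No difference of MDM2 was thus called over libraries. CDKN1B, which encodes the kinase inhibitor p27, had 0, 0 and 6 counts in aged (Tm), 0, 1, 1 and 1 in aged and 0, 1, 0 and 3 in young libraries. The further row ccng1 had 1, 4 and 5 counts in aged (Tm), 1, 3, 0 and 2 in aged and 0, 1, 1 and 5 in young libraries, with pooled levels of 7.29, 11.2 and 12.1 CPM in that order of groups, so that differences with tunicamycin or age were not detectable at this depth for either.

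**Figure D3:**
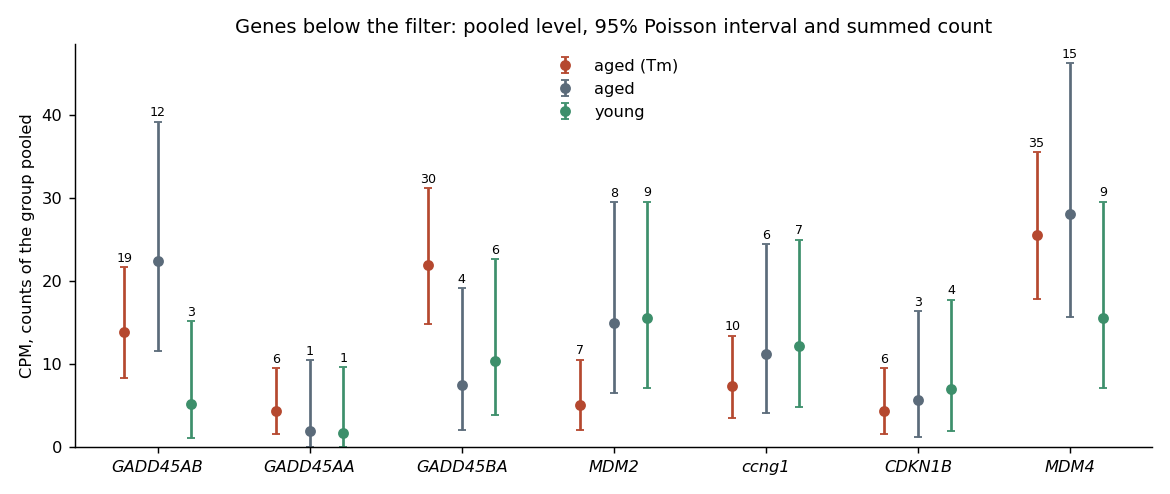
CPM from the pooled counts of each group (points), with exact 95% Poisson intervals (bars, counting error only) and the summed count printed above, for the 6 members below the filter and for MDM4. Intervals overlap between groups for all 7 genes; the aged (Tm) point is the highest of its gene for GADD45BA and GADD45AA and the lowest for MDM2, ccng1 and CDKN1B.

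In the fit with no filter, 1 of the 9 members, CDKN1A, passed the threshold in aged (Tm) over aged libraries (3.38, SE 0.67, adjusted p = 0.000103), where 6.87% of all 22954 genes did. It was also the only member called in aged (Tm) over young libraries (3.13, SE 0.67, adjusted p = 0.000394), beside 5.39% of all genes. None of the 9 was called in aged over young libraries in that fit, beside 0.0915% of all genes. At an unadjusted p under 0.05 there were 2 members with age, CCNG1 and GADD45AB (adjusted p = 0.885 each), and 855 of all 22954 genes, and DESeq2 called CCNG1 alone.

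MDM4 (ENSNFUG00015015846), whose protein inhibits p53 beside Mdm2, had 1, 2 and 32 counts in aged (Tm), 0, 6, 1 and 8 in aged and 0, 1, 0 and 8 in young libraries. Most of its aged (Tm) counts came from replicate 3.

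Around the members, 6 lists of related genes were read from the same fit. Of 91 listed names, 69 were found, in 79 rows, and 15 of these passed the filter. In aged (Tm) over aged libraries 5 of the 15 were called higher and 1 lower, beside the 18.5% and 20.2% of all tested genes given above, with a median log2 fold change of 0.32 over the 15 and −0.03 over all 3963. In aged over young libraries 0 of the 15 were called by edgeR, beside 0.707% of all tested genes. At an unadjusted p under 0.05 there were 0 of the 15, beside 242 of all 3963 genes. DESeq2 called 0 of them, beside 2.31% of the genes given an adjusted p. In aged (Tm) over young libraries 5 were called higher and 1 lower, beside 15.9% and 13.2% of all tested genes. The median was 0.19, against −0.10 over all. Leaving out young replicate 2 left 1 call in that comparison and leaving out aged (Tm) replicate 1 left 3. With the muscle sum as a term in the fit, 3 of the 15 were called over aged and 0 over young libraries, and thinning left CCNG2 alone in both.

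Of the relatives of the members, 2 of the 4 rows tested were called higher in both comparisons of aged (Tm) libraries. Beside them, 18.5% of all tested genes were called higher over aged and 15.9% over young libraries. CCNG2 (ENSNFUG00015000288, sgr02), the cyclin G1 relative linked to growth arrest, was at 1179, 930 and 248 CPM in aged (Tm), against 26.6, 33.9, 39.0 and 133 CPM in aged and 46.8, 109, 84.8 and 117 CPM in young libraries. All aged (Tm) libraries were higher than all others, where 36.1% of the tested genes had no overlap with aged and 31% none with young libraries. The log2 fold change of CCNG2 was 4.10 over aged (SE 0.73, adjusted p = 0.00142) and 3.59 over young libraries (SE 0.71, adjusted p = 0.00168). A second row of the same symbol (ENSNFUG00015014347) gave −0.17 and −0.11 (adjusted p = 0.858 and 0.908), at 25.9, 37.6 and 32.6 CPM in aged (Tm), 26.6, 18.8, 117 and 49.9 CPM in aged and 74.9, 58.1, 0 and 20.1 CPM in young libraries. The difference between both rows of CCNG2 was not tested. BTG1, an antiproliferative relative of btg2, was at 1043, 435 and 1050 CPM in aged (Tm), against 26.6, 170, 136 and 250 CPM in aged and 271, 153, 56.6 and 376 CPM in young libraries. It rose by 2.74 over aged (SE 0.70, adjusted p = 0.0107) and 2.19 over young libraries (SE 0.69, adjusted p = 0.0295) on the log2 scale, again without overlap. Over young libraries its call was lost in 5 of 24 alternatives, among them those without aged (Tm) replicate 1 (1.89, adjusted p = 0.134), without young replicate 2 (2.06, adjusted p = 0.109) and with the muscle term, where it turned to −0.26 (adjusted p = 0.920).

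Among other p53 targets, 2 of the 4 tested were called higher over aged libraries, beside 18.5% of all tested genes. pcna, the replication clamp that marks dividing cells rather than arrested ones, was at 202, 392 and 554 CPM in aged (Tm), against 53.1, 188, 19.5 and 122 CPM in aged and 93.6, 138, 56.6 and 198 CPM in young libraries, with log2 fold changes of 2.01 (SE 0.60, adjusted p = 0.0211) and 1.81 (SE 0.60, adjusted p = 0.0370). rrm2b, the p53-inducible subunit of ribonucleotide reductase, was at 72.1, 90.9 and 106 CPM in aged (Tm), against 53.1, 60.3, 39.0 and 16.6 CPM in aged and 28.1, 36.3, 0 and 53.7 CPM in young libraries, with 1.37 (SE 0.51, adjusted p = 0.0510) and 1.55 (SE 0.51, adjusted p = 0.0379). Neither the aged nor the young libraries overlapped the aged (Tm) libraries for pcna or rrm2b, as for 36.1% of the tested genes against aged and 31% against young libraries. rrm2b was over 55.5 CPM in all 3 aged (Tm) libraries, in 1 aged and in 0 young libraries, so that like CDKN1A it reached the filter through the group in which it was high. Its call was lost in 7 of 23 alternatives over aged and in 5 of 23 over young libraries. That of pcna was lost in 1 of 23 over aged and in 4 of 23 over young libraries, among them those without aged (Tm) replicate 2 (1.74, adjusted p = 0.119), without young replicate 2 (1.87, adjusted p = 0.101) and with the muscle term, where it turned to −0.62 (adjusted p = 0.769). FAS and PLK3 gave −0.39 and 0.16 in aged (Tm) over aged libraries (adjusted p = 0.604 and 0.850).

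Among p53 and its regulators, 4 of 15 rows were tested. TP53BP2, which encodes the p53 partner ASPP2, was at 216, 56.4 and 68.0 CPM in aged (Tm), 133, 30.1, 19.5 and 61.0 CPM in aged and 65.5, 50.9, 56.6 and 63.8 CPM in young libraries. It was called in aged (Tm) over aged libraries (1.57, SE 0.59, adjusted p = 0.0522) although the groups overlapped, and the call was lost in 8 of 23 alternatives, with 0.62 without aged (Tm) replicate 1 (adjusted p = 0.423). hipk2, a kinase that phosphorylates p53, was lower, at 5.77, 3.13 and 7.09 CPM in aged (Tm), against 53.1, 15.1, 58.5 and 33.3 CPM in aged and 0, 58.1, 56.6 and 30.2 CPM in young libraries. Its log2 fold change was −2.17 over aged (SE 0.85, adjusted p = 0.0586) and −2.23 over young libraries (SE 0.83, adjusted p = 0.0600), from 8 counts in aged (Tm), against 15 in aged and 19 in young libraries, and it passed the filter through aged and young libraries alone. Its CPM did not overlap between aged (Tm) and aged libraries, as for 36.1% of the tested genes, and the call was lost in 6 of 15 alternatives. tp53bp1 and CHEK1 gave −0.65 and −0.42 over aged libraries (adjusted p = 0.474 and 0.602).

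Of the G1 cyclins and their kinases, ccnd2a, a D-type cyclin that drives G1, was called in aged (Tm) over young libraries (1.42, SE 0.57, adjusted p = 0.0801) but not over aged libraries (0.57, SE 0.54, adjusted p = 0.408), and kept that call in 13 of 23 alternatives. It was at 60.5, 68.9 and 130 CPM in aged (Tm), 106, 67.8, 0 and 94.3 CPM in aged and 46.8, 29.1, 0 and 50.3 CPM in young libraries. With 3 aged (Tm), 3 aged and 0 young libraries over 55.5 CPM, ccnd2a passed the filter without the group it was called against. CDK4 gave 1.05 and 1.19 (adjusted p = 0.177 and 0.158), TOB1 0.32 and 0.19 (adjusted p = 0.702 and 0.837) and lin37 −1.09 and −1.31 (adjusted p = 0.328 and 0.248) over aged and young libraries. The genes called higher in aged (Tm) libraries thus held p21, cyclin G2 (not its second row) and BTG1, which are linked to arrest. They also held pcna, which is linked to division. ccnd2a, likewise linked to division, was called against young libraries alone, which differ from aged (Tm) ones in age as well as in tunicamycin. In aged over young libraries ccnd2a gave 0.85 (SE 0.59, adjusted p = 0.974). The others were rrm2b and, against aged libraries, TP53BP2. Over young libraries the calls of BTG1, pcna, rrm2b and ccnd2a were lost in several alternatives.

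**Figure D4:**
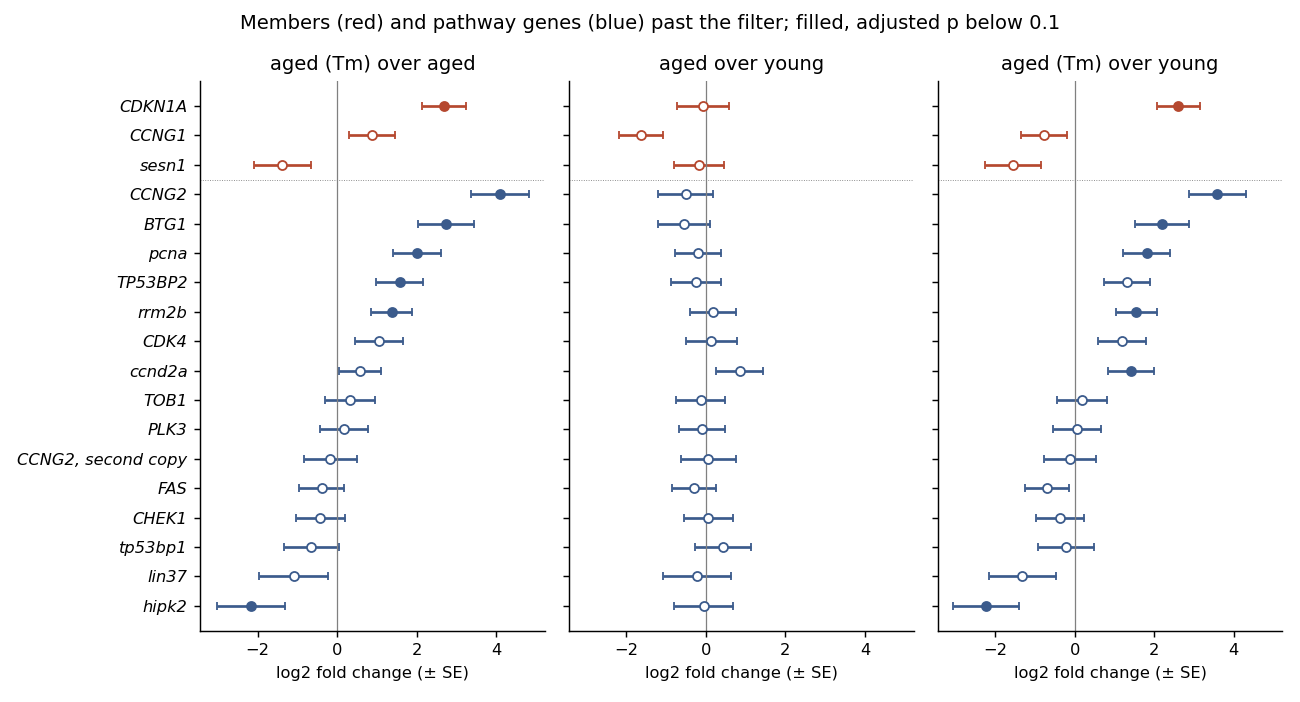
Log2 fold changes ± SE of the 3 tested members (red, above the dotted line) and the 15 tested rows of the related lists (blue) in the comparisons of aged (Tm) over aged, aged over young and aged (Tm) over young libraries. Filled points have an adjusted p below 0.1: CDKN1A is filled in both comparisons of aged (Tm) libraries, and no point is filled in the middle panel.

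None of the 9 rows of arrest genes linked to ER stress passed the filter. Among them TRIB3 and DDIT3 were chosen for the text after their values were seen. TRIB3, a pseudokinase induced by Atf4 and Ddit3 in mammals, had 45, 7 and 24 counts in aged (Tm), against 0, 2, 0 and 0 in aged and 0, 3, 0 and 1 in young libraries. In the fit with no filter it gave 4.83 over aged (SE 0.84, adjusted p = 4.59e-06) and 3.91 over young libraries (SE 0.77, adjusted p = 9.24e-05). DDIT3 had 8, 6 and 23 counts in aged (Tm), against 0, 2, 0 and 1 in aged and 1, 4, 3 and 4 in young libraries. Its level was 24.8 ± 7.07 CPM in aged (Tm) (SD, n = 3), 3.27 ± 3.86 CPM in aged and 34.2 ± 34.8 CPM in young libraries (SD, n = 4 each). In the fit with no filter DDIT3 gave 2.94 in aged (Tm) over aged libraries (SE 0.85, adjusted p = 0.0175) and 0.95 over young libraries (SE 0.69, adjusted p = 0.572), and its pooled level was 1.30 times that of young libraries (exact 95% interval 0.663 to 2.74). With age its CPM was lower without overlap (exact permutation p = 0.0286), as for 2.04% of all genes, from 3 counts in aged and 12 in young libraries (fit with no filter −1.99, SE 0.96, adjusted p = 0.885). By the limit of 3 counts, its 0 in aged replicates 1 and 3 allows up to 79.7 and 58.5 CPM. Young replicate 3, the highest, was at 84.8 CPM from 3 counts. Neither gene's CPM overlapped between aged (Tm) and aged libraries, as for 15.5% of all genes in the table. In the fit with no filter 11 of the 79 rows were called in aged (Tm) over aged libraries, beside 6.87% of all genes. All 11 were higher, where 89% of the 1578 calls over all genes were higher. Beside genes named above they were PPP1R15B, PLK2B, rbl2 and CDK4. Called over young libraries were 9 of the 79, beside 5.39% of all genes, among them PLK2B higher and igfbp3 lower. With age none were called, beside 0.0915% of all genes.

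The pattern of each tested member over the 11 libraries was set beside all other tested genes, as the mean absolute difference in log2 CPM after centring each gene on its mean. The closest to CDKN1A were BOP1, of ribosome biogenesis (0.364), dnajc2, a chaperone at the ribosome (0.373), and farsb, a subunit of phenylalanyl-tRNA synthetase (0.389), where the median gene differed by 1.26. For CCNG1 they were GABARAPA, of the autophagy machinery (0.259), SNRPB2, of the spliceosome (0.319), and oaz1b, an antizyme of ornithine decarboxylase (0.335; median gene 1.01). For sesn1 they were magi1a, a scaffold of cell junctions (0.311), BCL2L1, an inhibitor of apoptosis (0.343), and HER9, a transcriptional repressor of the hairy family (0.354; median gene 0.988). None of the 3 members was among the closest genes of another. All values share the 11 libraries and their depths, and the likeness is a description.

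**Figure D5:**
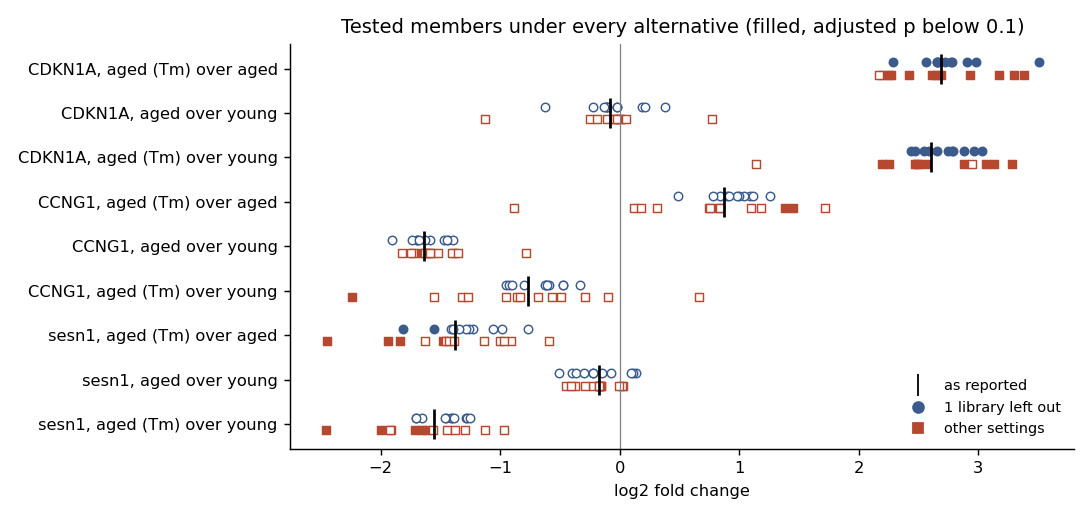
Log2 fold changes of CDKN1A, CCNG1 and sesn1 in the 3 comparisons as reported (black line), with 1 library left out (blue circles) and under the other alternatives (red squares); filled symbols have an adjusted p below 0.1. CDKN1A lay between 2.17 and 3.51 in aged (Tm) over aged libraries, while CCNG1 in the same comparison and CDKN1A and sesn1 with age lay on both sides of 0.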

How the data were processed

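UMI counts were measured by PIC with a CEL-seq2 type protocol. The authors separated the reads by barcode, mapped them and assigned UMI counts to genes; per the labels their tools were UMI-tools 1.0.0, HISAT2 2.1.0, featureCounts 1.6.4 and DESeq2 1.20.0. Genome build, annotation and use of strand are not given in the sources used here, so reads shared by related genes were not examined. The deposited values are whole counts without normalization. 3 library sets held 11 columns.

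Genes were tested with edgeR 4.0.16 (quasi-likelihood, TMM, filterByExpr) in R 4.3.3, with limma 3.58.1 and DESeq2 1.42.0 as alternatives, in a fit of all libraries, and the procedure was tested on simulated data. CPM were compared with two-sided exact permutation tests (35 splits of 3 against 4 libraries, 70 of 4 against 4; smallest p 0.0286). Intervals are 95% and cover counting error only. Alternatives were other scalings, filters, tools and thresholds, a fit limited to the pair of groups compared, thinning, a replicate block and leaving out each library, with 3 more chosen after the data were seen. Members, lists and the rule for named genes (all members, related genes past the threshold, MDM4 and the 3 genes closest to each tested member) were chosen with earlier results of these data known. A gene that the rule also names is not reported here.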

Additional observations from a re-analysis of the deposited data

Results flagged for a closer look

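In a group of 4 libraries, a CPM value was listed when the gap between it and its neighbour took up nearly the whole range of the group. Of 40 groups looked at, over 20 genes in aged and in young libraries, 6 held such a value. The rule flags about 1 in 20 groups of normally distributed values. That rate does not hold for counts near 0, where a gene counted in only 1 library is always flagged. The 6 of 40 can therefore not be set against it. All but 1 of the 6 values come from 1 to 4 counts in a library. GADD45AA was at 26.6 CPM in aged replicate 1 and at 28.3 CPM in young replicate 3, each from 1 count in a shallow library, and at 0 in the rest of both groups. GADD45BA was at 15.1 CPM in aged replicate 2 and at 0 in the other aged libraries. TRIB3 was at 7.53 CPM in aged replicate 2 and at 21.8 CPM in young replicate 2. CCNG2 (ENSNFUG00015000288) was at 133 CPM in aged replicate 4, against 26.6 to 39.0 CPM in the other aged libraries; without that library its log2 fold change in aged (Tm) over aged libraries was 5.25 in place of 4.10. No explanation was tested.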

How the results depend on the processing

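The counts of members called moved with the threshold and the fit. In aged (Tm) over aged libraries edgeR called 1 member, against 3 at an adjusted p of 0.5, 2 each under upper quartile scaling, total count alone, DESeq2, without the 3 libraries under 60000 counts and with the muscle list as a covariate, and 0 when thinned with no filter; leaving out 1 library gave 1 to 2. The 1 call under thinning was sesn1, since CDKN1A was not tested there. With age 0 were called, beside 0.707% of all genes tested. There was 1 at an adjusted p of 0.5 and 1 by DESeq2, which called 2.31% of the genes given an adjusted p. In aged (Tm) over young libraries 1 was called, against 3 at an adjusted p of 0.5, 2 each under upper quartile scaling, total count alone, a minimum of 10 counts in 3 libraries, a fit of this pair of groups only, thinning and without the shallow libraries, and 0 when thinned with no filter or with the covariate; leaving out 1 library gave 1 to 2. Of the related genes, 6 of 15 tested rows were called in aged (Tm) over aged libraries, against 3 at 0.05 and 10 at 0.5. There were 11 of 79 rows with no filter, 12 by DESeq2, 1 each when thinned with or without the filter, and 3 each without the shallow libraries and with the covariate. Over all genes, 1534 of 3963 were called as reported, 1578 of 22954 with no filter and 2286 of 9152 by DESeq2. Upper quartile scaling called 1645 and total count 1395 of 3963, and thinning 140 of 609 (103 of 19485 unfiltered). Without the shallow libraries 816 of 5302 were called, with the covariate 647 of 3963 and without 1 library 714 to 1844 genes. Calls over all genes at 0.05 and 0.5 were not counted, so no conclusion is drawn there. With age 0 of the related genes were called, beside 0.707% of all genes tested. There the covariate fit called 3 of 15, beside 1070 of all 3963 genes. In aged (Tm) over young libraries 6 of them were called, against 10 at 0.5, 12 by DESeq2 and 3 by total count. There was 1 each when thinned with or without the filter and 0 with the covariate, and leaving out 1 library gave 1 to 9. Over all genes this comparison called 1155 of 3963 as reported, 1784 of 7372 by DESeq2 and 820 of 3963 by total count. Thinning called 179 of 609 (163 of 19485 unfiltered), the covariate fit 369 of 3963 and leaving out 1 library 498 to 1520 genes. Upper quartile scaling called 1313 of 3963, and 10 counts in 3 libraries 1303 of 4190. The fit of this pair called 1491 of 4229, and that without the shallow libraries 1475 of 5302.

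Some log2 fold changes changed sign. In aged over young libraries sesn1 was at 0.025 under total count and 0.0157 in the fit of this pair only, and CDKN1A at 0.0016 under upper quartile scaling, 0.0040 under total count, 0.77 when thinned with no filter and 0.054 without the shallow libraries; leaving out 1 library gave −0.51 to 0.14 for sesn1 and −0.62 to 0.38 for CDKN1A. CCNG1 was at −0.88 in aged (Tm) over aged libraries when thinned. With the covariate, in aged (Tm) over young libraries, CCNG1 was at 0.66, BTG1 at −0.26, pcna at −0.62 and ccnd2a at −0.043. The cause was not tested. Of 225 alternative CPM differences of the members, 222 moved by less than the spread between replicates. Leaving out 1 library cannot move a difference by that much, so those alternatives could not count as moved. Only the change to TMM-scaled levels, made once for each of 27 differences, could, and 3 of these moved.

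Scaling moved the median gene in aged (Tm) over aged libraries by 0.21 (RLE), −0.49 (upper quartile) and −0.55 (total count) on the log2 scale. Of the genes called there, 47.8% were higher, against 59.3%, 25.5% and 26.5% in that order; over young libraries 54.7%, against 69.7%, 30.9% and 42.2%. With age it was 10.7%, against 21.4% under total count. Same-numbered libraries correlated at −0.51 to 0.38 in their deviations from the group means, and differently numbered ones at −0.559 to 0.615. A pairing by number was thus not seen, but against so wide a range this check cannot exclude it. With a replicate block the counts of members called were 1, 0 and 1 as before, and CDKN1A was at 3.30 (adjusted p = 0.00484) over aged and 3.28 (adjusted p = 0.00371) over young libraries. Depth limits the 6 members below the filter, which have 142 counts in all.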
